A study of Mus musculus with 14 samples.

Results

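The genes described here encode the enzymes that work inside lysosomes together with the membrane proteins of the organelle, a set of 32 genes written out by symbol. They comprised 8 peptidases (cathepsins A, B, C, D, H, L and Z and tripeptidyl peptidase 1), 10 glycosidases and sulfatases, 7 proteins of lipid breakdown, sphingolipid activation and sterol export, 5 membrane proteins and 2 subunits of the vacuolar proton pump. Probe sets that the platform table pairs with exactly 1 of these symbols were taken, and the probe set with the highest mean signal stood for its gene. This gave 31 of the 32 genes, of 11308 genes tested in all, and all 31 passed the filter on low signal. Cd63, a lysosomal tetraspanin, had no probe set listed under its symbol alone and was not analysed here.

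Liver RNA came from 14 male CBA/J mice of an inbred strain, 1 animal per array, killed at 5 months of age. Both groups were housed individually on 84 kcal per week of an AIN93M-based purified diet, a rodent maintenance formula. In 7 of them the diet carried krill powder extract for 3 months, starting at 2 months of age, and the other 7 received the control diet for the same time. Total protein and lipid were equal in the diets, whose amino acid and fatty acid composition differed.

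Lysosomes are acidic compartments that take apart proteins, glycans, glycogen and lipids delivered by endocytosis and autophagy, and they return the products to the cytosol. Most soluble lysosomal enzymes carry a mannose 6-phosphate tag that routes them to the organelle, the proton pump keeps the lumen acidic, and heavily glycosylated membrane proteins line its wall. In liver, lysosomes of hepatocytes handle autophagic cargo, glycogen and lipoprotein cholesterol, while those of Kupffer cells, the resident macrophages, degrade particles cleared from the blood. Many genes of the organelle share a promoter element, the CLEAR motif, that is bound by the transcription factor TFEB and its relatives.

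The arrays of the diets differed in technical measures, which bears on every value below. Hybridisation spike-in signal, on the log2 scale, lay between 12.59 and 13.22 on control arrays, between 12.92 and 13.17 on krill arrays 1, 3 and 6, and between 14.12 and 14.34 on krill arrays 2, 4, 5 and 7. The 3'/5' signal ratio, a measure of RNA shortening, was 1.78 to 2.44 on control and 2.48 to 3.79 on krill arrays for actin, and 4.49 to 10.7 against 11.6 to 25.7 for pyruvate carboxylase. These ratios separated the diets completely, so diet and 3'/5' ratio cannot be told apart here, and a fit with the ratio as a covariate called 0 of 11308 genes (limma), with 1873 at an unadjusted p under 0.05. Because the spike-in signal of krill arrays 2, 4, 5 and 7 exceeded that of every control, counts of genes are also given without them. Leaving them out does not remove the 3'/5' difference. Krill arrays 1, 3 and 6 still lay above every control, at 2.48 to 3.01 for actin and 11.6 to 25.7 for pyruvate carboxylase. Hepatocyte genes were among the strongest signals on the array, with a summed signal over 7 measured markers of 294765 to 426910 on control and 374857 to 723734 on krill arrays, and of 5 adipocyte markers the 3 with a probe set were too dim to be tested.

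Lysosomal genes were lower in the livers of krill-fed mice more often than higher. Of the 31 genes, 14 fell (45.2%), 4 rose (12.9%) and 13 did not pass the test (limma, Benjamini-Hochberg adjusted p under 0.05 over all 11308 genes), while 24.8% of all genes tested fell and 22.9% rose. The set was chosen with earlier results of these data known, so its shares are a description and no test of the set. The median log2 change, krill minus control, was -0.40 over the 31 genes and 0.042 over all genes, and 22 of the 31 changes were negative. A fall of at least 2-fold was measured for 9 of them, and 1, the peptidase gene Ctsh, rose by that much. Over all genes tested, the lowest decile of log2 changes lay below -1.16 and the highest above 1.02. Changes of at least 2-fold were thus common among genes in general. No share of all genes is given for the counts of negative or 2-fold changes, so these counts do not set lysosomal genes apart. The signal of every krill array lay below that of every control array for 6 genes (19.4%, beside 7.61% of all genes) and above it for 2 (6.45%, beside 6.52% of all genes). The share with separated groups on the upper side was thus that of genes in general. In bulk liver RNA, fewer cells of a type and less RNA per cell cannot be told apart.

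**Figure D1:**
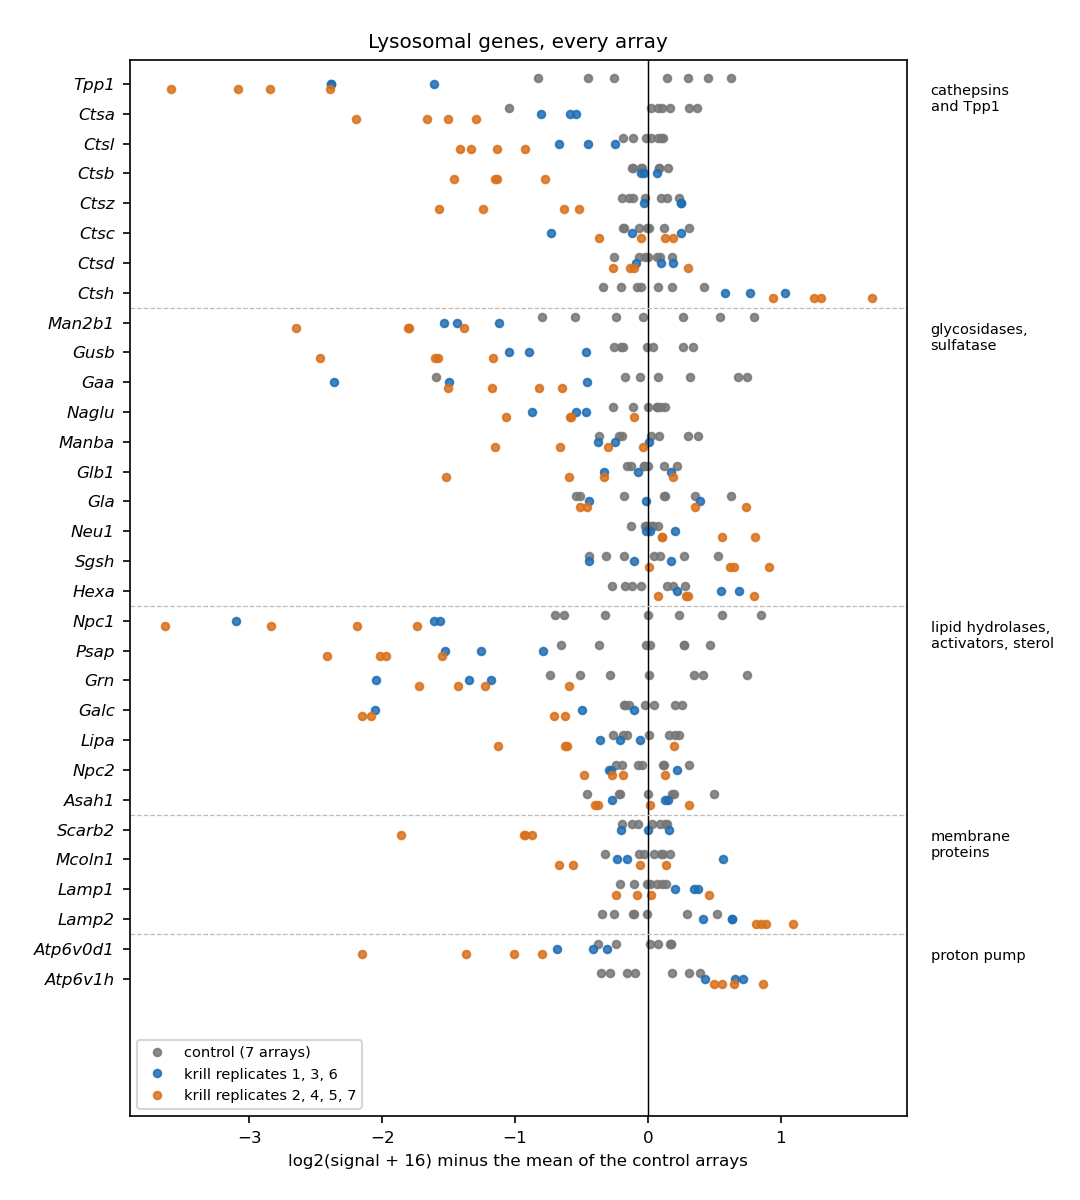
Log2(signal + 16) of each of the 31 lysosomal genes on each of the 14 arrays, shown as the difference from that gene's control mean, with genes grouped by role and ordered by their change. Krill arrays 2, 4, 5 and 7 (orange) lie far below krill arrays 1, 3 and 6 (blue) for Ctsb, Ctsz and Scarb2, whereas all 7 krill arrays lie below the 7 controls (grey) for Tpp1, Npc1 and Psap.

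Without krill arrays 2, 4, 5 and 7, 10 of the 31 genes fell (32.3%, beside 19.6% of all genes), 4 rose (12.9%, beside 12.7%) and 17 did not pass. Every remaining krill array lay below every control for 8 genes (beside 13.6% of all genes) and above for 3 (beside 10.8%). The median change was then -0.12 over the lysosomal genes and -0.040 over all genes, a smaller distance than with all arrays. The 10 genes that fell and the 4 that rose had also done so with all arrays. The falls of Ctsa, Ctsb, Galc and Scarb2 were lost, and 11 of the 14 falls were smaller in size, the exceptions being Gaa, Naglu and Grn. The number of genes counted as higher depended on scaling. With arrays centred on their medians 1 rose and 16 fell, and with arrays scaled to the spike-ins 0 rose and 23 fell, when the median of all genes moved to -0.36 and -0.71. Such a scaling moves all genes of an array alike. Relative to all genes the lysosomal median was -0.44 with all arrays, but -0.083 without the 4 arrays and -0.083 with the spike-in level as a covariate.

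**Figure D2:**
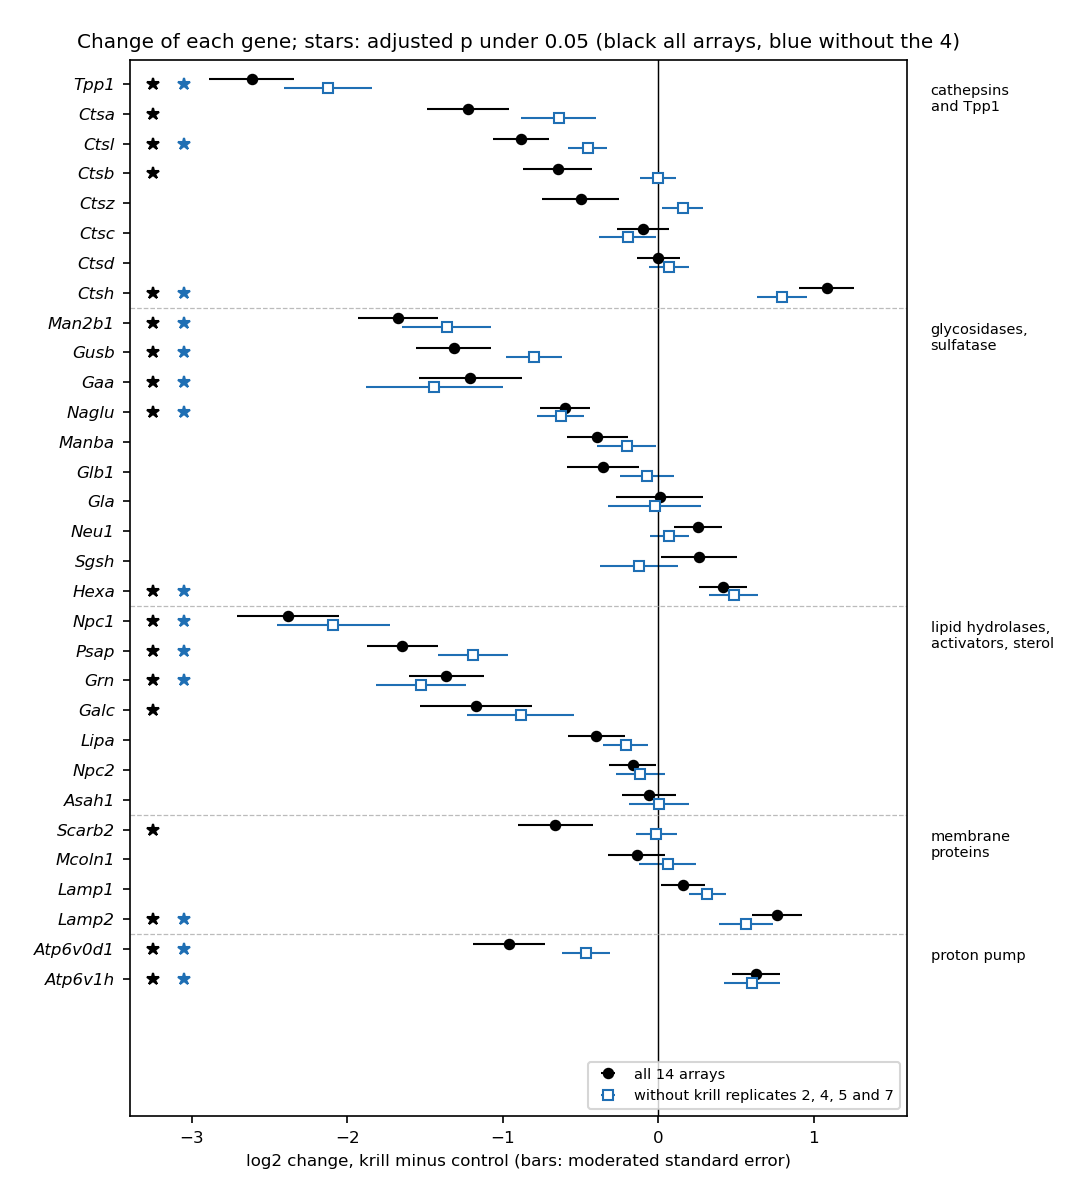
Log2 change, krill minus control, of the 31 lysosomal genes with all 14 arrays and without krill arrays 2, 4, 5 and 7, with bars for the standard error. Tpp1 and Npc1 stay near the bottom in both fits, at -2.61 and -2.38 with all arrays, while Ctsb and Scarb2 move to near 0 without the 4 arrays.

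Among the peptidases, 4 of 8 fell, 1 rose and 3 did not pass, with a median change of -0.57. Beside this and the counts of the other small groups below, 24.8% of all genes fell and 22.9% rose. Without the 4 arrays those shares of all genes were 19.6% and 12.7%. Without the 4 arrays 2 fell and 1 rose, and the median was -0.10. Tpp1 encodes tripeptidyl peptidase 1, which clips tripeptides from the amino end of proteins and is lost in a childhood form of Batten disease. Its signal ran from 2407 to 6632 on control arrays, with a median of 4738, and from 340.2 to 1395 on krill arrays, with a median of 800.0. Every krill array was below every control, with control arrays 2, 5 and 6 the lowest of their group and krill array 2 the lowest of all. The mean fell 6.12-fold on the log2(signal + 16) scale, a log2 change of -2.61 (SE 0.27, adjusted p = 1.05e-05), and the change was -2.13 without the 4 arrays. This was the largest fall of the 31 genes.

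Ctsl, the gene of cathepsin L, a cysteine endopeptidase that is among the main proteases of the lysosome, gave a signal from 22924 to 28312 on control arrays, with a median of 26585, and from 9777 to 22008 on krill arrays, with a median of 13725. The groups did not overlap, but krill array 1 came within reach of the lowest control, and arrays 2, 4 and 5 read lowest. Its log2 change was -0.88 (SE 0.18, adjusted p = 0.000733), and -0.45 without the 4 arrays. Ctsa encodes cathepsin A, a carboxypeptidase that also holds beta-galactosidase and sialidase in a protective complex, and its signal ran from 1566 to 4209 on control arrays, with a median of 3503, and from 699 to 2239.7 on krill arrays, with a median of 1320.2. The groups overlapped through control array 5 alone, which read far below the other controls. Its change of -1.23 (SE 0.26, adjusted p = 0.00112) became -0.64 (adjusted p = 0.0559) without the 4 arrays.

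Cathepsin B, encoded by Ctsb, is a cysteine protease that is plentiful in liver. Its signal ran from 16617 to 19984 on control arrays, with a median of 17479, and from 6540.4 to 18872 on krill arrays, with a median of 10519.6. Krill arrays 1, 3 and 6 averaged 17992 ± 777 (SD, n = 3), close to the control mean of 18069 ± 1333 (SD, n = 7), whereas krill arrays 2, 4, 5 and 7 averaged 8343 ± 1639 (SD, n = 4). On this probe set the krill livers thus fell into the same sets of arrays that the spike-in signal separates. The change of -0.65 (SE 0.22, adjusted p = 0.0241) became -0.0038 (adjusted p = 0.985) without those 4 arrays, and leaving out krill array 2 or 5 alone also ended the call. Ctsz, encoding the carboxypeptidase cathepsin Z, showed the same division, with krill arrays 1, 3 and 6 at 12253 ± 1326 (SD, n = 3), the other 4 at 5752 ± 1913 (SD, n = 4) and controls at 11004 ± 1239.8 (SD, n = 7). Its change of -0.50 did not pass (adjusted p = 0.102) with all arrays as deposited. It passed without krill array 3 or 6, after quantile normalization and after scaling to the spike-ins, while without the 4 arrays it was 0.16 (adjusted p = 0.396).

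Ctsh, which encodes cathepsin H, an aminopeptidase, moved the other way. Its signal ran from 11088 to 18784 on control arrays, with a median of 13526, and from 21045 to 45232 on krill arrays, with a median of 28687. All krill arrays read above all controls, krill array 2 highest, and among the controls arrays 2 and 5 were the highest. The mean rose 2.12-fold, a log2 change of 1.08 (SE 0.18, adjusted p = 0.000121), and 0.80 without the 4 arrays. Scaled to the spike-ins the change was 0.29 (adjusted p = 0.286), which was 1.01 above the median of all genes under that scaling. The aspartic protease cathepsin D (Ctsd) had a change of 0.00036 (adjusted p = 0.998), and Ctsc, encoding the dipeptidyl peptidase that activates granule proteases of immune cells, of -0.10 (adjusted p = 0.634). For Ctsd the means were 4349 ± 408 (SD, n = 7) on control arrays and 4370.4 ± 624 (SD, n = 7) on krill arrays, a narrow spread in both.

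**Figure D3:**
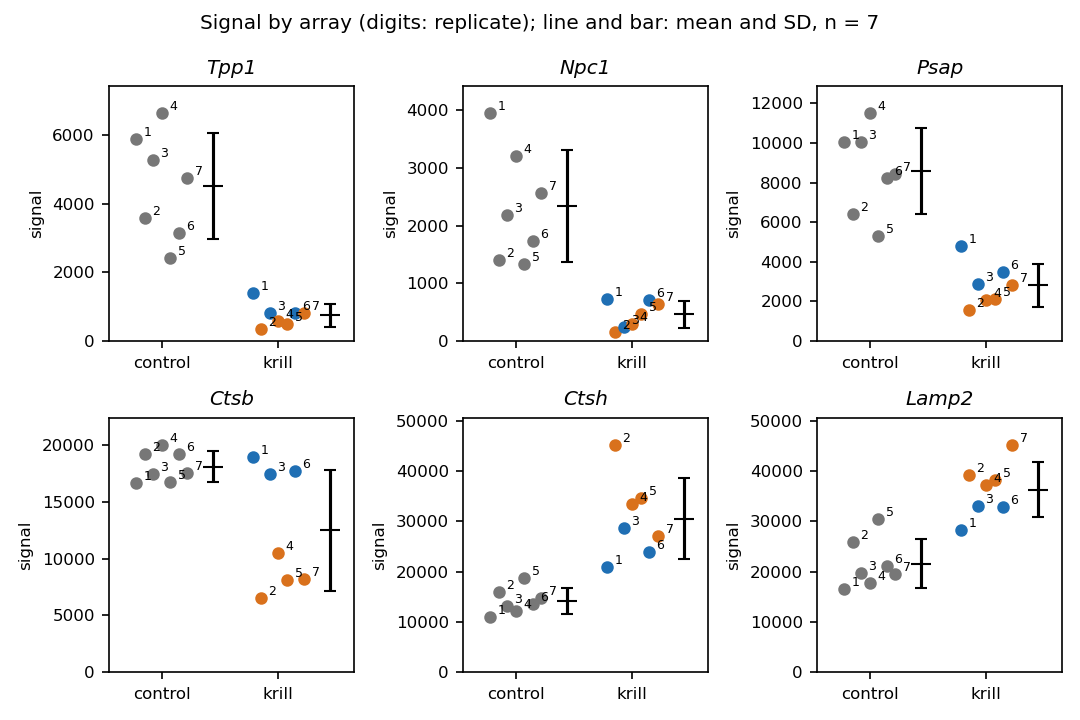
Signal of Tpp1, Npc1, Psap, Ctsb, Ctsh and Lamp2 on each array by diet, on a linear axis from 0, with digits for the replicate, krill arrays 2, 4, 5 and 7 in orange, 1, 3 and 6 in blue, and the mean and SD (n = 7) of each group beside its points. Tpp1, Npc1 and Psap are separated below the controls and Ctsh above them, whereas Ctsb on krill arrays 1, 3 and 6 sits among the controls.

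Of the 10 glycosidases and sulfatases, 4 fell, 1 rose and 5 did not pass, with a median change of -0.37. Without the 4 arrays the counts were also 4 and 1, and the median was -0.16. Man2b1 encodes the lysosomal alpha-mannosidase that trims N-glycans of glycoproteins, and its signal ran from 1654 to 5039 on control arrays, with a median of 2815, and from 446 to 1320.3 on krill arrays, with a median of 986. The groups did not overlap, and the lowest controls were arrays 5 and 2. Its log2 change was -1.67 (SE 0.26, adjusted p = 8.04e-05), a 3.19-fold fall, and -1.36 without the 4 arrays. Gusb, encoding beta-glucuronidase of glycosaminoglycan breakdown, gave a signal from 706 to 1079 on control arrays, with a median of 841, and from 140.2 to 609.5 on krill arrays, with a median of 368. Again no krill array reached a control, with krill array 2 the lowest and krill array 1 the highest of the fed group. Its change was -1.32 (SE 0.24, adjusted p = 0.000336), and -0.80 without the 4 arrays.

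Gaa encodes acid alpha-glucosidase, the enzyme that digests glycogen inside lysosomes and is missing in Pompe disease. Gaa signal ran from 319.7 to 1679 on control arrays, with a median of 1052, and from 181 to 720.2 on krill arrays, with a median of 432. Control array 5 read lower than all but 1 krill array, and the other 6 controls lay above every krill array. The change was -1.21 (SE 0.33, adjusted p = 0.00632) and did not shrink without the 4 arrays, at -1.44. Naglu, for the alpha-N-acetylglucosaminidase of heparan sulfate breakdown, gave a signal from 691 to 910.1 on control arrays, with a median of 872, and from 389 to 771 on krill arrays, with a median of 552. Only krill array 7 reached into the control range. Its change was -0.60 (SE 0.16, adjusted p = 0.00531), and -0.63 without the 4 arrays. After quantile normalization it did not pass, at -0.39 (adjusted p = 0.0863).

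Hexa, the gene of the alpha subunit of beta-hexosaminidase, which splits GM2 ganglioside, rose by a smaller step. Its signal ran from 1633 to 2400.4 on control arrays, with a median of 1909, and from 2085 to 3448 on krill arrays, with a median of 2442, and every krill array was above the control mean although the groups overlapped. The change of 0.42 (SE 0.15, adjusted p = 0.0336) was 0.48 without the 4 arrays, and the call was lost in 7 of 14 fits that left out 1 array (without control 1, 3, 5 or 7 or krill 2, 3 or 6). With arrays scaled to the spike-ins it reversed to -0.37, which was 0.35 above the median of all genes. The other sugar-cleaving enzymes did not pass the test. Glb1 (beta-galactosidase) had a change of -0.35 (adjusted p = 0.215), Manba (beta-mannosidase) of -0.39 (adjusted p = 0.103) and Neu1 (sialidase) of 0.26 (adjusted p = 0.171). For Gla (alpha-galactosidase A) the change was 0.0083 (adjusted p = 0.983), and for Sgsh, the sulfatase that acts beside Naglu on heparan sulfate, 0.26 (adjusted p = 0.389).

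Among the 7 proteins of lipid breakdown, sphingolipid activation and sterol export, 4 fell, 3 did not pass and 0 rose, with a median change of -1.17. Without the 4 arrays 3 fell and 0 rose, and the median was -0.89. Npc1 encodes the membrane protein that moves cholesterol out of the lysosome and is defective in Niemann-Pick disease type C. Its signal ran from 1332 to 3949.8 on control arrays, with a median of 2179.8, and from 160.3 to 724 on krill arrays, with a median of 465. All krill arrays lay below all controls, and control arrays 5 and 2 were the lowest of their group. The mean fell 5.21-fold, a log2 change of -2.38 (SE 0.33, adjusted p = 4.04e-05), and -2.09 without the 4 arrays. Npc2, the soluble partner that hands cholesterol to Npc1, averaged 3567 ± 492 (SD, n = 7) on control and 3197 ± 579 (SD, n = 7) on krill arrays. Its change of -0.17 did not pass (adjusted p = 0.37), and the difference between the changes of these partners was not tested.

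Psap encodes prosaposin, the precursor that is cut into saposins, which present sphingolipids to their hydrolases. Psap signal ran from 5291 to 11503 on control arrays, with a median of 8426, and from 1545 to 4808 on krill arrays, with a median of 2836. The groups were separate, krill array 2 lowest and krill array 1 nearest to the controls. The log2 change was -1.65 (SE 0.23, adjusted p = 4.56e-05), a 3.13-fold fall, and -1.19 without the 4 arrays. Grn encodes progranulin, a secreted and lysosomal glycoprotein that binds prosaposin, and its signal ran from 3335 to 9352 on control arrays, with a median of 5583, and from 1332 to 3670.4 on krill arrays, with a median of 2176. Only krill array 7 lay within the control range. Its change was -1.37 (SE 0.24, adjusted p = 0.000243) with all arrays and -1.53 without the 4.

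Galc, encoding the galactosylceramidase lost in Krabbe disease, was dim, and its signal ran from 152 to 211 on control arrays, with a median of 171, and from 26.8 to 161 on krill arrays, with a median of 101. Krill arrays 1, 2 and 5 read far lower than the other 4, and only krill array 3 overlapped the controls. The change of -1.17 (SE 0.36, adjusted p = 0.0131) was -0.89 without the 4 arrays (adjusted p = 0.0636). Both other probe sets of Galc lay below the signal filter and moved the other way, by 1.16 and 0.78. They averaged 41.0 and 58.3 on control arrays and 108 and 151 on krill arrays, so the fall of Galc rests on 1 probe set. Lipa, the gene of lysosomal acid lipase, which hydrolyses cholesteryl esters and triglycerides, averaged 6439 ± 907 (SD, n = 7) on control arrays, against 5025 ± 1455 (SD, n = 7) on krill arrays. Its change of -0.40 did not pass (adjusted p = 0.0811) as deposited. It passed without krill array 7, with quantile normalization, median centring, spike-in scaling or array weights, and with its probe sets averaged. Asah1, encoding acid ceramidase, had a change of -0.061 (adjusted p = 0.788).

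The membrane proteins moved both ways, with 1 of 4 measured genes higher, 1 lower and 2 not passing, and a median change of 0.0090. Without the 4 arrays 1 rose and 0 fell, and the median was 0.19. Lamp2, whose product lines the lysosome and is needed for the fusion of autophagosomes with it, gave a signal from 16673 to 30475 on control arrays, with a median of 19744, and from 28285 to 45222 on krill arrays, with a median of 37245. Only the lowest krill array, array 1, overlapped the controls, through control array 5. Its change was 0.76 (SE 0.16, adjusted p = 0.000998), and 0.56 without the 4 arrays. With arrays scaled to the spike-ins it was -0.027, which was 0.69 above the median of all genes. The closely related Lamp1 had a change of 0.16 (adjusted p = 0.37), and Mcoln1, the cation channel that releases calcium from lysosomes, of -0.14 (adjusted p = 0.541).

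Scarb2 encodes LIMP-2, the receptor that carries glucocerebrosidase to the lysosome. Its signal ran from 7109.8 to 9006 on control arrays, with a median of 8314, and from 2234 to 9131 on krill arrays, with a median of 4439. As for Ctsb, krill arrays 1, 3 and 6 were at control level, 8127 ± 1032 (SD, n = 3), and arrays 2, 4, 5 and 7 at 3803 ± 1049 (SD, n = 4). The change of -0.66 (SE 0.24, adjusted p = 0.032) became -0.012 (adjusted p = 0.954) without those 4 arrays, and the call was lost in 7 of 14 fits that left out 1 array (control 3, 4 or 7 or krill 2, 4, 5 or 7).

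The proton pump subunits of the set moved apart, 1 higher and 1 lower with all arrays and without the 4. Atp6v1h, for the H subunit of the cytosolic V1 sector, gave a signal from 1127 to 1909 on control arrays, with a median of 1350.3, and from 1953 to 2653 on krill arrays, with a median of 2277, with no overlap between the diets. Its change was 0.63 (SE 0.15, adjusted p = 0.00331), and 0.60 without the 4 arrays. It was -0.16 with arrays scaled to the spike-ins, 0.56 above the median of all genes. Atp6v0d1, for the d subunit of the membrane sector, gave a signal from 2862 to 4211 on control arrays, with a median of 3916, and from 826 to 3008 on krill arrays, with a median of 2129.9. Krill array 3 alone overlapped the controls, and krill array 7 was the lowest. Its change was -0.96 (SE 0.23, adjusted p = 0.00287), and -0.47 without the 4 arrays.

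Several of the genes are read by more than 1 probe set, each made of short probes to the transcript, and these did not always move alike. The 31 genes had 69 probe sets, of which 57 passed the signal filter. Of the 57, 26 fell (45.6%, beside 26.3% of all probe sets past the filter), 9 rose (15.8%, beside 19.1%) and 22 did not pass (limma, adjusted over 19246 probe sets). Among 18 genes with several probe sets past the filter, 14 had all of them on the same side of 0. Each probe set past the filter fell for Tpp1, Gaa, Gusb, Psap and Grn, and each rose for Ctsh and Lamp2. Ctsb had 5 probe sets past the filter, of which 4 fell. The falls were larger on the second probe set of Psap, at -2.79, and of Gaa, at -2.39, and on the other probe sets of Grn, at -2.20 and -2.31. For Tpp1 the second probe set fell less, by 1.02 on the log2 scale.

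In a few genes the choice of probe set decided the call. Ctsa was the only gene with probe sets past the test in both directions, the brighter at -1.23 (adjusted p = 0.0013) and the dimmer at 1.11 (adjusted p = 0.00258). The dimmer one averaged 218 ± 61.1 (SD, n = 7) on control and 508 ± 218 (SD, n = 7) on krill arrays. With the probe sets averaged the change of Ctsa was -0.059 (adjusted p = 0.751), and its call was lost. Both other probe sets of Lipa fell, with changes of -1.32 (adjusted p = 0.00043) and -1.25 (adjusted p = 5.64e-05), whereas the brightest one did not pass. The dimmer of these read 2091 ± 543 (SD, n = 7) on control and 858 ± 141 (SD, n = 7) on krill arrays. A second probe set of Mcoln1 fell, with a change of -0.71 (adjusted p = 0.0046), and the one that stood for the gene did not pass. The acid lipase and the calcium channel thus have a call of lower on some of their probe sets that the gene counts above do not hold. For Scarb2 the second probe set had a change of -0.24 and did not pass (adjusted p = 0.319), and their average was -0.45 (adjusted p = 0.0769).

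**Figure D4:**
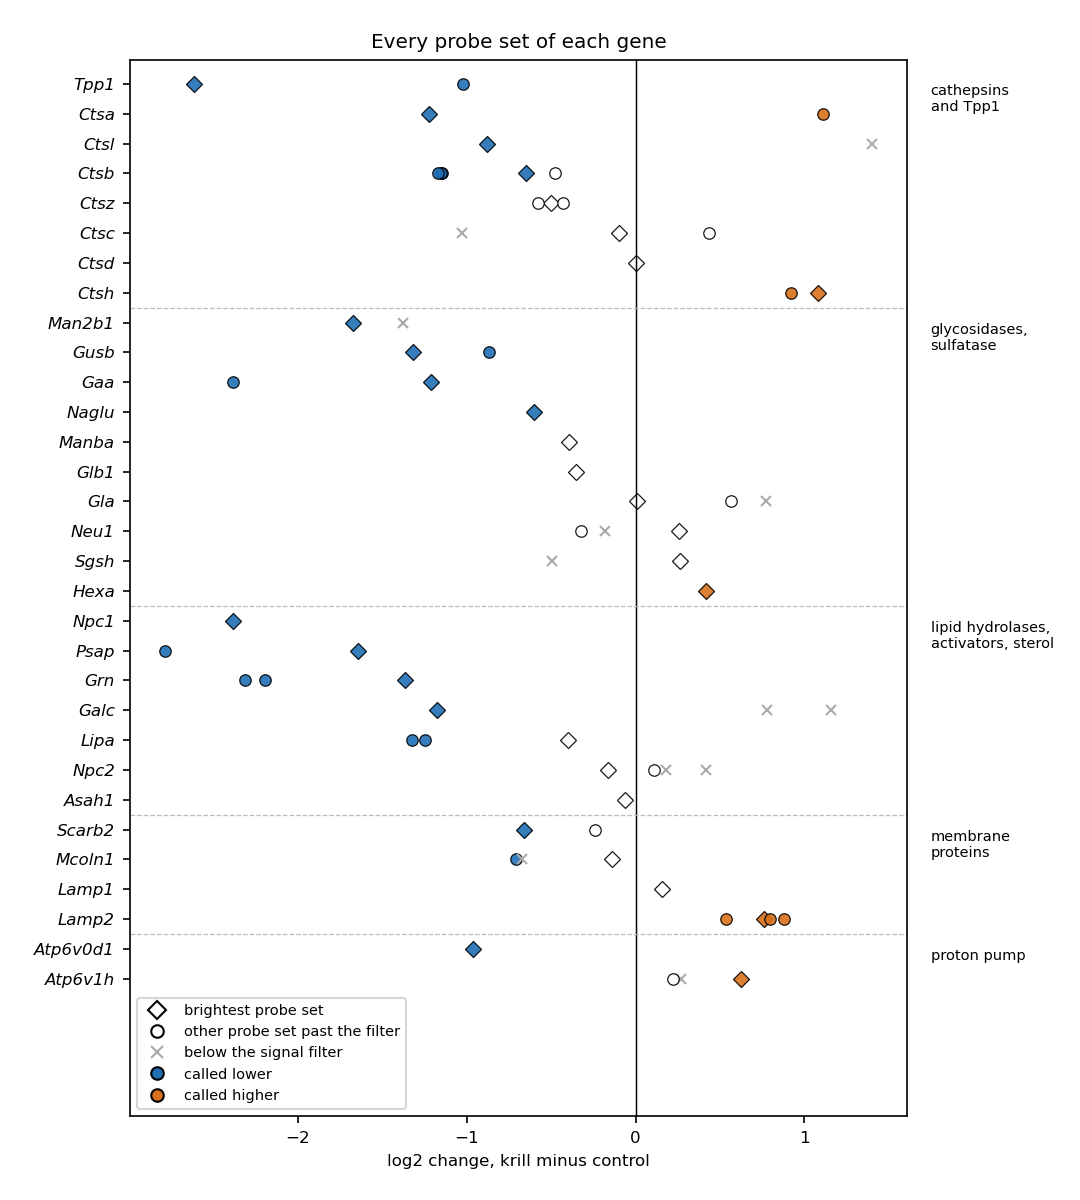
Log2 change, krill minus control, of the 69 probe sets of the 31 genes, with a diamond for the brightest of each gene, a cross for those below the signal filter, blue for those that fell, orange for those that rose and a line at 0. Ctsa has probe sets on both sides of 0, and all those of Psap, Grn, Tpp1, Gaa and Gusb lie below it.

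The spread between animals was wider on krill arrays. The SD of log2 signal had a median of 0.22 on control and 0.46 on krill arrays over the 31 genes, and was larger in krill for 25 of them (80.6%). Over all genes tested the medians were 0.29 and 0.55, and the krill SD was larger for 87.3%. On krill arrays 1, 3 and 6 alone, an SD over 3 arrays in place of 7, the median was 0.22 for the 31 genes and 0.33 for all genes. Krill array 2 gave the lowest krill value for 14 of the 31 genes and for 9 of the 14 that fell, with no share of all genes to set beside it.

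Control livers also varied together. Control arrays 2 and 5 both read below the other 5 controls for 10 of the 31 genes (Gaa, Gusb, Man2b1, Neu1, Psap, Grn, Npc1, Npc2, Mcoln1 and Atp6v0d1), a pattern seen in 12.8% of all genes, and both above them for Ctsh, Asah1 and Lamp2, a pattern seen in 12.1% of all genes. Control array 5 gave the lowest control value for 11 genes, among them 9 of the 14 that fell. No share of all genes is given for this count, so it does not set lysosomal genes apart. Without that array, 10 genes in place of 6 had every krill array below every control, while over all genes the share went from 7.61% to 11%.

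To set the changes beside the CLEAR element, the 250 bases before the start of each gene were searched in RefSeq promoters (GRCm38.p6), where 27 of the 32 genes, Cd63 among them, were found. The core hexamer CACGTG, which reads the same on both strands, occurred in 10 of 27 promoters (37.0%), in 6.86% of all 27025 genes in the table and in 10.03% of the 9173 tested genes with a promoter. The longer TCACGTGA, also its own reverse complement and containing the core, occurred in 4 of 27 (14.8%), those of Ctsa, Ctsd, Gla and Mcoln1, and in 0.907% of all genes and 1.73% of tested genes. The full consensus by the name CLEAR was in 0 of 27, and in 0.270% of all genes. The 100 bases before the start are shown for 6 promoters with the hexamer in capitals and, for contrast, for Tpp1 and Grn, which fell without holding it in the 250 bases. The windows lie at chr8:13159061-13159160, plus strand (Lamp1), chr8:3500419-3500518, plus strand (Mcoln1), chr2:164833673-164833772, plus strand (Ctsa), chr7:142387828-142387927, minus strand (Ctsd), chr9:114400978-114401077, plus strand (Glb1), chr11:101069994-101070093, plus strand (Naglu), chr7:105752236-105752335, minus strand (Tpp1) and chr11:102430407-102430506, plus strand (Grn), each written 5′ to 3′ on the strand of its gene. Ctsa has a second start in the table, whose window is not shown, and Sgsh holds the hexamer once in its own 100 bases.
Lamp1: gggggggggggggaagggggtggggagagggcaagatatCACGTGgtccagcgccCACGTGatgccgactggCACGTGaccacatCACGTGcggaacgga
Mcoln1: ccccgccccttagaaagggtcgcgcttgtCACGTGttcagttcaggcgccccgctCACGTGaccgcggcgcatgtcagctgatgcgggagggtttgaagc
Ctsa: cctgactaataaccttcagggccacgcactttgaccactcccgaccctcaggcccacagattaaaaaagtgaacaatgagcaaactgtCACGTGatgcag
Ctsd: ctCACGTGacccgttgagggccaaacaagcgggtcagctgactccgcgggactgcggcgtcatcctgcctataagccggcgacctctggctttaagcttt
Glb1: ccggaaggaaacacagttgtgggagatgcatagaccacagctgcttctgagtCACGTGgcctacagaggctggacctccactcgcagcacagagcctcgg
Naglu: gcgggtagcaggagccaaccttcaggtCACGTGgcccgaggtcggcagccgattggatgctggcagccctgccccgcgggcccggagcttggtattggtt
Tpp1: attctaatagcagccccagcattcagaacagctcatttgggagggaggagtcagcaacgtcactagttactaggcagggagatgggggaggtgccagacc
Grn: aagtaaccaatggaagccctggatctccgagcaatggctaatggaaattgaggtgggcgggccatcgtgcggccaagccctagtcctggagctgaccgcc

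The promoter of Lamp1 holds 4 copies of the hexamer within these 100 bases and that of Mcoln1 holds 2. Over the 250 bases Ctsd and Gla also hold 2 copies each. A match describes the letters and is no evidence of binding. Of the 10 genes with the hexamer (Ctsa, Ctsd, Ctsl, Gaa, Glb1, Naglu, Gla, Sgsh, Lamp1 and Mcoln1), 4 fell, 0 rose and 6 did not pass, with a median change of -0.25. Of 16 tested genes whose promoter lacks it, 8 fell, 2 rose and 6 did not pass, with a median of -0.58. Beside both, 24.8% of all genes tested fell and 22.9% rose, with a median of 0.042. The difference between genes with and without the hexamer was not tested. No promoter was matched for Ctsb, Ctsh, Asah1, Npc1 and Atp6v1h.

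Other genes of the lysosomal pathway were read from 6 further lists, with 126 of 138 genes tested. These lists too were chosen with earlier results of these data known. Of the 126, 45 fell (35.7%, beside 24.8% of all genes), 30 rose (23.8%, beside 22.9%) and 51 did not pass, with a median change of -0.31. Without the 4 krill arrays 35 fell (27.8%, beside 19.6%) and 31 rose (24.6%, beside 12.7%), with a median of -0.19. With arrays scaled to the spike-ins 75 fell and 2 rose, and with arrays centred on their medians 57 fell and 11 rose. Other hydrolases and activators counted 10 lower (41.7%) and 4 higher (16.7%) of 24. Without the 4 arrays this turned to 5 lower (20.8%, near the 19.6% of all genes) and 6 higher (25%). Plbd2, a phospholipase-like lysosomal protein, changed by -1.87 (adjusted p = 2.05e-05), the asparaginyl endopeptidase gene Lgmn by -1.13 (adjusted p = 0.000735) and the arylsulfatase A gene Arsa by -1.04 (adjusted p = 0.000994). Ggh, for gamma-glutamyl hydrolase of folate breakdown, rose by 0.79 (adjusted p = 0.00326).

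Of 16 other membrane proteins and transporters, 7 fell (43.75%) and 2 rose (12.5%), or 7 (43.75%) and 1 (6.25%) without the 4 arrays. Of all genes tested 24.8% fell and 22.9% rose, or 19.6% and 12.7% without the 4 arrays. The 2-pore cation channel gene Tpcn1 changed by -3.09 (adjusted p = 5.4e-05), more than any of the 31 genes, and the lysosomal transporter gene Spns1 by -0.99 (adjusted p = 0.000682). Clcn7, the chloride-proton exchanger, changed by -1.03 (adjusted p = 0.00114) and Litaf, a late endosomal membrane protein, by -0.83 (adjusted p = 0.00155). With its probe sets averaged Clcn7 was at -0.21 (adjusted p = 0.407), and its call was lost. The other proton pump subunits had a median above 0, 0.32, with 6 higher (40%) and 5 lower (33.3%) of 15. Without the 4 arrays 5 were higher (33.3%) and 2 lower (13.3%). The 4 with the smallest p all rose, Atp6v0e by 1.68 (adjusted p = 6.78e-05), Atp6v0b by 1.19 (adjusted p = 0.000237), Atp6v1c1 by 0.98 (adjusted p = 0.000333) and Atp6v1f by 1.04 (adjusted p = 0.000547). Genes for sorting enzymes to the lysosome counted 10 lower (40%) and 5 higher (20%) of 25, or 10 lower (40%) and 6 higher (24%) without the 4 arrays. Among them the retromer gene Vps29 rose by 1.22 (adjusted p = 0.000159) and Gnptg, for a subunit of the enzyme that starts the mannose 6-phosphate tag, by 1.08 (adjusted p = 0.000775). Vps16, of the tethering complexes of late endosomes, changed by -0.99 (adjusted p = 0.000964) and Ap3d1, of the adaptor AP-3, by -1.04 (adjusted p = 0.00108).

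Of 21 genes of lysosomal gene regulation and nutrient sensing, 7 rose (33.3%, beside 22.9% of all genes) and 4 fell (19.0%, beside 24.8%). Without the 4 arrays 6 rose (28.6%, beside 12.7%) and 5 fell (23.8%, beside 19.6%). Tsc2, a brake on the growth kinase mTORC1, changed by -3.01 (adjusted p = 3.84e-05), and Fnip2, a folliculin partner, by -1.12 (adjusted p = 0.000361). Tsc2 averaged 597 ± 202 (SD, n = 7) on control arrays and was dim on krill arrays, at 76.7 ± 69.8 (SD, n = 7). The median signal of a krill array over all probe sets was 81.3 to 205, so the size of this fall rests on dim readings. Lamtor4 and Lamtor5, subunits of the Ragulator complex that docks mTORC1 on the lysosome, rose by 1.34 (adjusted p = 0.00014) and 1.38 (adjusted p = 0.000222). Among the CLEAR-binding factors, Tfeb had a change of -0.46 (adjusted p = 0.328) and Tfe3 of -0.56 (adjusted p = 0.0708), neither past the test. Without the 4 arrays they were at -1.02 (adjusted p = 0.0513) and -0.65 (adjusted p = 0.0798). Tfe3 was called lower with median centring, spike-in scaling or array weights, and Tfeb with spike-in scaling. Median centring and spike-in scaling lowered all genes together. Mitf rose by 0.60 (adjusted p = 0.0497), or 0.038 (adjusted p = 0.908) without the 4 arrays, and 9 of 14 fits that left out 1 array did not call it (control 1, 2, 3, 6 or 7 or krill 2, 4, 5 or 7). Autophagy genes counted 9 lower (36%) and 6 higher (24%) of 25, which turned to 6 lower (24%) and 7 higher (28%) without the 4 arrays. Their median was -0.27 with all arrays and -0.043 without the 4. Rb1cc1, for a scaffold of the initiating kinase complex, rose by 1.06 (adjusted p = 0.000103) and Gabarap, of the ATG8 family, by 1.17 (adjusted p = 0.000354). Atg9a, for the lipid scramblase of the growing autophagosome, changed by -1.41 (adjusted p = 0.000162), and Map1lc3a, also of the ATG8 family, by -0.72 (adjusted p = 0.000788).

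**Figure D5:**
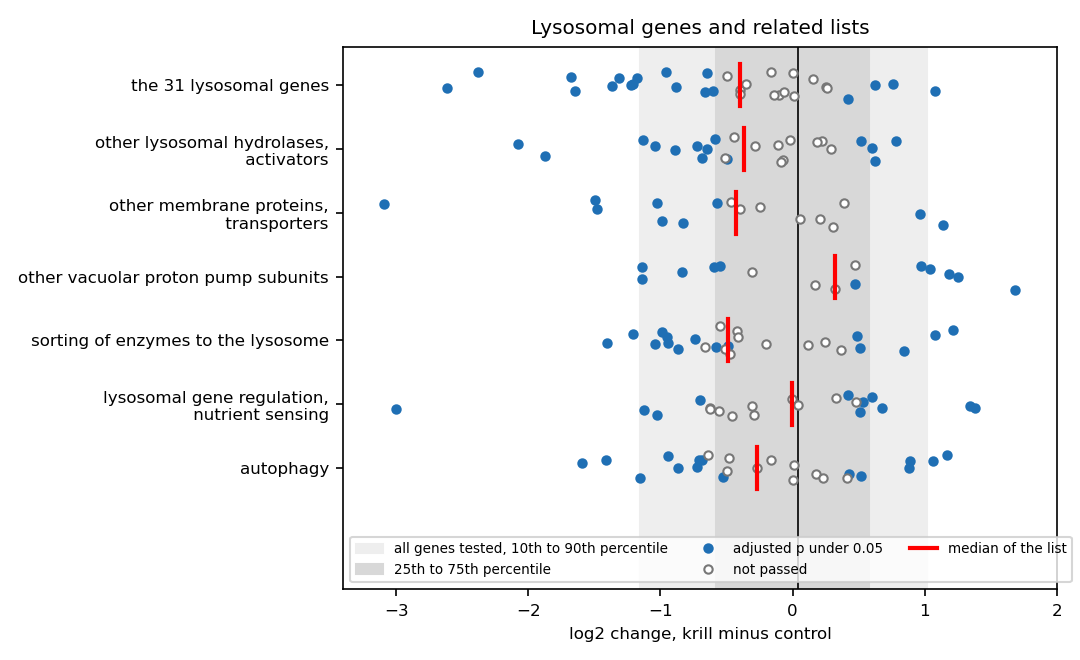
Log2 change, krill minus control, of each tested gene in the 31-gene set and in the 6 further lists, with 1 point per gene, filled where it passed the test, a red line at each list's median and grey bands for the spread of all genes tested. The medians run from -0.49 for sorting genes to 0.32 for the other proton pump subunits, beside 0.042 for all genes tested.

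Kupffer cells and macrophages are rich in lysosomes. For them 13 marker symbols were listed, Adgre1 also under its older symbol Emr1, and 11 genes were tested. Of the 11, 3 rose (27.3%, beside 22.9% of all genes), 3 fell (27.3%, beside 24.8%) and 5 did not pass, with a median change of 0.34. Those that rose were Cd5l, Lyz2 and Adgre1, and those that fell were Vsig4, C1qc and Cd68. Without the 4 krill arrays the same 3 rose and Cd68 alone fell. The signal summed over the 12 of these markers with a probe set ran from 10758 to 14855 on control and from 12267 to 24508 on krill arrays. Cd68, itself a lysosomal membrane glycoprotein, changed by -0.65 (adjusted p = 0.0488), and Clec4f, a lectin specific to Kupffer cells, by 0.34 (adjusted p = 0.088). Hepatocyte markers counted 4 higher (57.1%, beside 22.9% of all genes) and 1 lower (14.3%, beside 24.8%) of 7, and 0 of 7 passed in either direction without the 4 arrays. The part of cell composition in the lysosomal changes was not tested.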

How the data were processed

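Liver RNA of 14 mice was read on Affymetrix mouse arrays. The authors deposited 1 table of linear signal intensity per probe set, made with MAS5 per the submitters' processing notes, and its mean without the lowest and highest 2 percent is 500 on every array. Of MAS5 no version is given in the sources used here. Detection calls and scanner files were not used. Groups and replicate numbers came from sample titles.

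Of 45101 probe sets, 64 were controls, 34945 had 1 gene symbol, 932 had several and 9160 were not listed; only those with 1 symbol entered a test. Intensity was taken as log2(signal + 16), which understates the change of dim genes. The upper 50% of probe sets by mean were kept, 1 per gene (highest mean). The diets were compared by limma 3.58.1 under R 4.3.3 (lmFit, eBayes with trend), with Benjamini-Hochberg adjustment over 11308 genes and a threshold of 0.05, after a check on simulated data. That simulation gave both diets the control spread and no shifts shared by arrays, so it does not cover the wider spread of the krill arrays. Python 3.11.15 with pandas 2.3.3, numpy 2.4.6 and matplotlib 3.10.9 made counts and figures. Replicates are separate animals, and their number limits the precision.

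The 32 genes, the 6 pathway lists and the marker lists were chosen with earlier results of these data known. All 32 genes were to be named, and from each pathway list the 4 with the smallest p, with Tfeb, Tfe3 and Mitf whatever their p. The macrophage markers named were chosen after their values were seen. Alternatives were pseudocounts of 1 and 64, quantile normalization, centring on array medians, scaling to 18 spike-in probe sets, no filter or the upper 30%, probe sets averaged per gene, array weights, no trend, a replicate block, the spike-in level or 3'/5' index as a covariate, and arrays left out. The fit of every probe set was added after the data were seen.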

Additional observations from a re-analysis of the deposited data

Results flagged for a closer look

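In 2 of 62 sets of 7 arrays, each a gene in 1 diet, a single array stood apart from the rest by Dixon's criterion, which chance alone meets in about 1 in 20 such sets. Both were in control array 5. Ctsa read 1566 there, while the other 6 control arrays ran from 3309 to 4209. Gaa read 319.7 there, and the other 6 ran from 882 to 1679. Without control array 5 the log2 change of Ctsa was -1.40 and that of Gaa -1.47.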

How the results depend on the processing

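Under the alternatives tried, the counts of the 31 genes and of the 126 pathway genes stayed within 1.5 times their values except as given here. Centring on array medians left 1 gene higher and 0 with every krill array above every control, 11 pathway genes higher, and a median of -0.80. Scaling to the spike-ins left 0 higher and 23 lower, 0 separated above, 2 pathway genes higher and 75 lower, and a median of -1.18. With the spike-in level as a covariate 1 was higher and 7 lower, 17 and 20 pathway genes, with a median of -0.15. With the 3'/5' index as a covariate 0 were higher and 0 lower among the 31 and in the pathway, as among all genes, with 6 of the 31 lower and 1 higher at an unadjusted p under 0.05 (limma) and a median of -0.21. The index is confounded with diet. Averaging a gene's probe sets left 1 separated above, ended the calls of Ctsa and Scarb2, and added Lipa and Mcoln1. It left 24 pathway genes higher and 46 lower, and of the pathway genes named above Clcn7 lost its call. Without krill replicates 2, 4, 5 and 7 the median was -0.12. Among the 31 genes quantile normalization ended the call of Naglu and added Ctsz, Lipa and Neu1. Leaving out 1 array gave 6 to 10 genes separated below, the 10 without control replicate 5.

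Among genes called in either fit, signs turned for Ctsb (0.014 with the spike-in covariate, 0.26 with the index), Scarb2 (0.051 with the spike-in covariate) and Mitf (-0.096 and -0.086 with the covariates), and the cause was not tested. Spike-in scaling lowered all genes together, with their median at -0.71, and took Ctsd to -0.79, Hexa to -0.37, Lamp2 to -0.027, Atp6v1h to -0.16 and Mitf to -0.15. Relative to that median Ctsd was at -0.073, Hexa at 0.35, Lamp2 at 0.69 and Atp6v1h at 0.56. Genes called in neither fit also changed sign, 3 of the 31 with the spike-in covariate, 6 with the index and 5 without the 4 arrays. Leaving out 1 array ended the call of Hexa or Scarb2 in 7 of 14 fits each and of Ctsb in 2 (krill 2 or 5), and it added Ctsz in 2 (krill 3 or 6), Lipa in 1 (krill 7) and Tfe3 in 2 (control 5 or krill 7).

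Same-numbered control and krill arrays correlated weakly after removal of group means, from -0.023 to 0.098, with 0 of 7 pairs over 0.1. Only 1 control array correlated best with the krill array of its own number. With the replicate block 14 of the 31 genes were lower and 4 higher, the same genes as without it, and 44 pathway genes were lower and 28 higher. Mitf lost its call under it.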
